A study of Mus musculus with 6 samples.

Results

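Examined here were 9 transcription factors grouped under macrophage identity. They are the CCAAT/enhancer-binding proteins *Cebpa*, *Cebpb* and *Cebpd*, the Krüppel-like factors *Klf2*, *Klf4* and *Klf6*, and *Maf*, *Runx1* and *Bhlhe40*. The name is that of the group and not a result, and the cells held little of *Klf4* and *Maf*. The factors were taken by gene symbol, and all 9 were among the 24786 symbols of the deposited table. Messenger RNA of Raw264.7 cells, a mouse macrophage line made from an Abelson leukemia virus-induced tumor and labelled as strain C57BL/6, was sequenced in 3 sh-NC libraries and 3 sh-*Etv5* libraries. The paper names C57BL/6 for its mice but gives no strain for this purchased line, so that the strain label is unchecked. With Lipofectamine 3000 present, cells of both groups were infected with a lentivirus that carried sh-NC, the control hairpin, or sh-*Etv5*, a hairpin RNA that targets *Etv5*, and the labels give 24 or 48 h as the time of measurement. The paper, however, describes the sequenced cells as stably transfected, and its lentiviral method for Raw264.7 cells includes selection with puromycin during passage. The 24 or 48 h may thus not be the time of these libraries. Which of the *Etv5* shRNAs was sequenced, and whether each library had its own infection, is not stated in the sources used here, so that p-values measure the spread between libraries, which may be technical. In this bulk RNA, fewer cells with a transcript and less of it per cell cannot be told apart.

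C/EBP proteins bind DNA as pairs through a leucine zipper. C/EBPα drives the commitment of progenitors to the myeloid lineage and restrains division, whereas C/EBPβ and C/EBPδ are the inducible members that serve inflammatory and acute-phase genes. Runx1, with its partner CBFβ, opens the myeloid program in progenitors. Klf2 is known to restrain macrophage activation, Klf4 takes part in monocyte differentiation and alternative activation, and Klf6 has been tied to inflammatory activation. c-Maf is linked to *Il10* expression and tissue residency, and Bhlhe40 is a basic helix-loop-helix repressor.

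The knockdown target was lower in each sh-*Etv5* library. *Etv5* was at 9.18, 9.89 and 9.39 RPKM (reads per kilobase of gene, scaled to library depth) in sh-NC cells and at 5.19, 4.91 and 5.28 RPKM in sh-*Etv5* cells, or 0.78 lower on the log2 scale (log2 fold change -0.78, limma adjusted p = 2.74e-07). Low values shared a preferred step in each library, and if 1 step is 1 counted read, the depth of the other 5 libraries was 89.7% to 106% of that of sh-NC replicate 1. However, only 18.7% to 20.5% of the values below 10 steps lay within 0.05 of a whole step, so that read counts were not recovered and no counting interval was computed. Macrophage markers were abundant. Of 10, 9 passed the filter on low values, 4 were higher, 4 lower and 1 not called, and the summed level was 4490 to 4616 RPKM in sh-NC and 3587 to 3704 RPKM in sh-*Etv5* libraries. *Mertk* was not above 0.0653 RPKM. Markers of lymphocytes (9 genes) and epithelial cells (4 genes) summed to no more than 0.415 and 0.0234 RPKM. Marker sums of other cells also differed between the groups: 6 fibroblast markers summed to 0.0112 to 0.0238 RPKM in sh-NC and 0.764 to 1.10 RPKM in sh-*Etv5* libraries (none passed the filter, and *Lum* was the highest), 6 dendritic cell markers to 2.52 to 2.94 and 0.631 to 0.713 RPKM, 6 osteoclast markers to 12.9 to 14.1 and 6.12 to 6.76 RPKM (*Dcstamp* fell from a mean of 12.6 to 4.002 RPKM and *Acp5* rose from 0.464 to 2.32 RPKM), and 9 neutrophil markers to 1.16 to 1.69 and 17.6 to 21.9 RPKM. Their part in the results was not tested.

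The C/EBP genes changed in opposite directions. Of the 7 factors that could be tested, *Cebpd* rose the most, *Cebpb* and *Klf6* also rose, *Cebpa* fell the most, and *Bhlhe40* and *Runx1* fell less. *Klf2* was not called, and *Klf4* and *Maf* were below the filter of 1 RPKM in at least 3 libraries. Thus, 7 of the 9 factors were tested, and 6 of these 7 were called at a limma adjusted p-value under 0.05 (3 higher and 3 lower in sh-*Etv5* cells). Of all 10738 genes tested, 74.3% were called, 33.3% higher and 41.0% lower, so that the count of called factors is near that of any genes in this comparison. The sizes were larger: the median absolute log2 fold change was 0.85 over the 7 factors and 0.31 over all tested genes, and the signed medians were 0.09 and -0.05. These medians are a description only, since the factors were chosen with earlier results of these data known. Changes of low genes, which are among all tested genes, are also understated on this scale. In the same 6 factors, and in *Maf*, no sh-NC library reached the range of the sh-*Etv5* libraries, as in 76.4% of all tested genes.

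**Figure D1:**
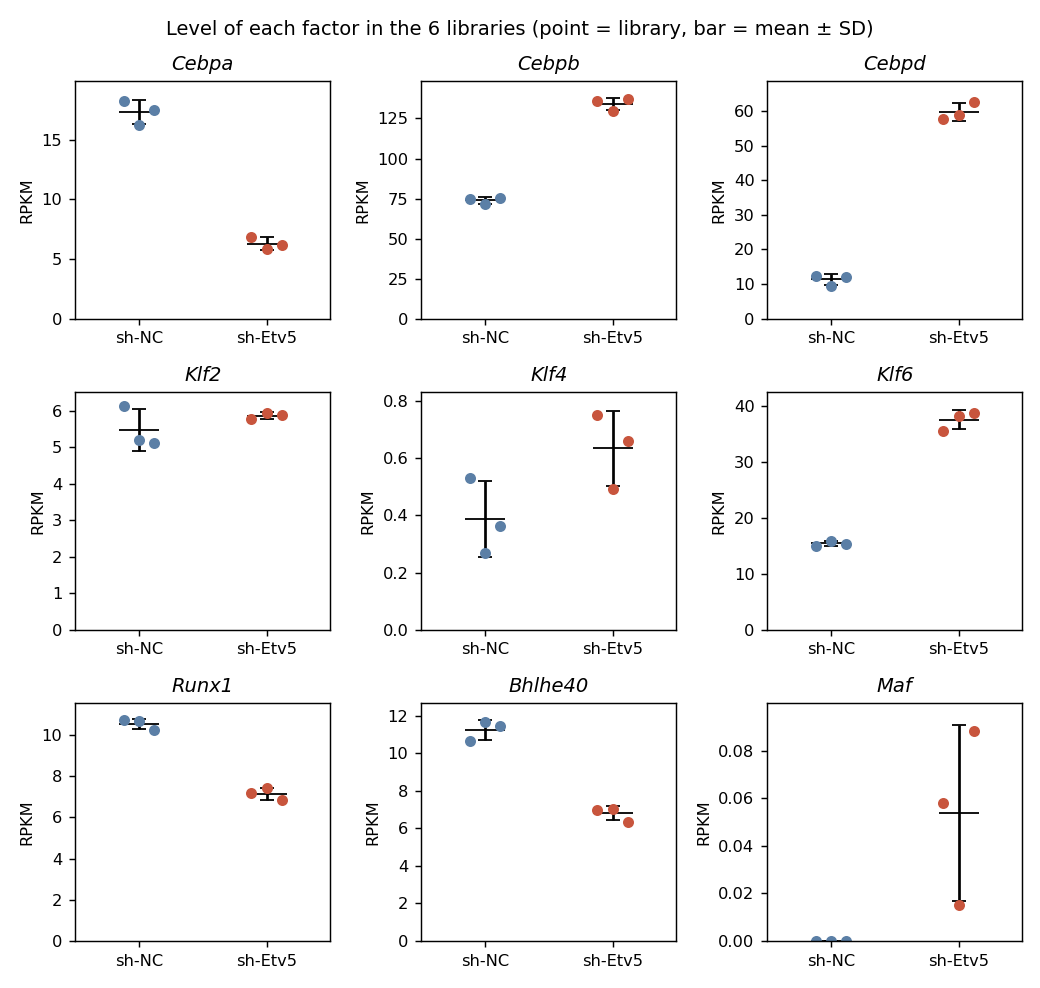
RPKM of each of the 9 factors by group, on axes that start at 0. Each point is a library and the bars give the mean ± SD of 3 libraries. The groups are apart for *Cebpa*, *Cebpb*, *Cebpd*, *Klf6*, *Runx1* and *Bhlhe40*, overlap for *Klf2* and *Klf4*, and for *Maf* no library exceeds 0.0883 RPKM.

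*Cebpd* measured 12.4, 9.51 and 12.2 RPKM in sh-NC libraries, against 57.6, 59.0 and 62.8 RPKM in sh-*Etv5* libraries. Its lowest sh-*Etv5* library lay far above its highest sh-NC library. The mean was 5.26 times as high, 59.8 ± 2.66 against 11.4 ± 1.61 RPKM (SD, n = 3), and the log2 fold change of 2.31 (95% confidence interval 2.13 to 2.49, limma adjusted p = 8.1e-10) was the 116th largest rise among the tested genes. The gene lies on chromosome 16 from 15887286 to 15891031, plus strand (GRCm38, GENCODE M21). In this annotation, 15.0% of its exonic bases overlap exons of *Spidr* on the opposite strand, and strand use in counting is not stated. *Spidr* itself was at 11.5 ± 0.725 and 11.9 ± 0.546 RPKM (SD, n = 3, log2 fold change 0.05, limma adjusted p = 0.424).

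*Cebpb* was the most abundant of the 9 factors in both groups. It measured 74.6, 71.4 and 75.6 RPKM in sh-NC libraries, against 136, 130 and 137 RPKM in sh-*Etv5* libraries, with no overlap. The mean rose by 81.6%, from 73.9 ± 2.21 to 134 ± 3.81 RPKM (SD, n = 3, log2 fold change 0.85, 95% confidence interval 0.77 to 0.93, limma adjusted p = 3.68e-09). *Cebpb* is a gene with 1 exon on chromosome 2 from 167688915 to 167690418, plus strand, and 20.7% of it overlaps exons of *Tmem189* on the opposite strand. *Tmem189* rose by a like amount, from 46.7 ± 2 to 84.9 ± 1.38 RPKM (SD, n = 3, log2 fold change 0.85, limma adjusted p = 6.45e-09). The part of shared reads in either rise was not tested.

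*Cebpa* moved the other way. It was at 18.3, 16.3 and 17.5 RPKM in sh-NC and at 6.85, 5.81 and 6.20 RPKM in sh-*Etv5* libraries, so that each sh-*Etv5* library was well below each sh-NC library. The mean of *Cebpa* was 17.3 ± 1.01 RPKM in sh-NC and 6.29 ± 0.523 RPKM in sh-*Etv5* libraries (SD, n = 3), and thus fell by 63.7%. The log2 fold change of -1.33 (95% confidence interval -1.48 to -1.19, limma adjusted p = 1.01e-08) was the 128th largest fall among the tested genes. *Cebpa* lies on chromosome 7 from 35119293 to 35121928, plus strand, with 1.93% of its exonic bases overlapped by another gene.

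The make-up of the C/EBP transcripts was therefore different in the groups. RPKM values are scaled to gene length, and the levels of the 3 genes were summed within each library. The sum rose from 103 ± 4.69 to 200.3 ± 5.64 RPKM (SD, n = 3). *Cebpa* made up 17.4%, 16.7% and 16.6% of it in the sh-NC libraries and 3.42%, 2.99% and 3.01% in the sh-*Etv5* libraries. *Cebpd* made up 11.8%, 9.78% and 11.6% in sh-NC and 28.8%, 30.3% and 30.5% in sh-*Etv5* libraries. The share of *Cebpb* was less apart, at 72.1 ± 1.32% and 67.0 ± 0.693% (SD, n = 3). For each of the 3 shares the groups did not overlap, and the exact two-sided permutation test gave p = 0.1, the smallest that 3 against 3 libraries allow. There were 4.27 ± 0.162 units of *Cebpb* per unit of *Cebpa* in sh-NC and 21.4 ± 1.39 in sh-*Etv5* libraries (SD, n = 3, exact permutation p = 0.1). *Cebpd*, which was at 0.653 ± 0.0603 of the level of *Cebpa* in sh-NC libraries, was at 9.56 ± 0.995 times that level in sh-*Etv5* libraries (SD, n = 3, exact permutation p = 0.1). In other words, *Cebpa* was above *Cebpd* in every sh-NC library and below it in every sh-*Etv5* library.

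**Figure D2:**
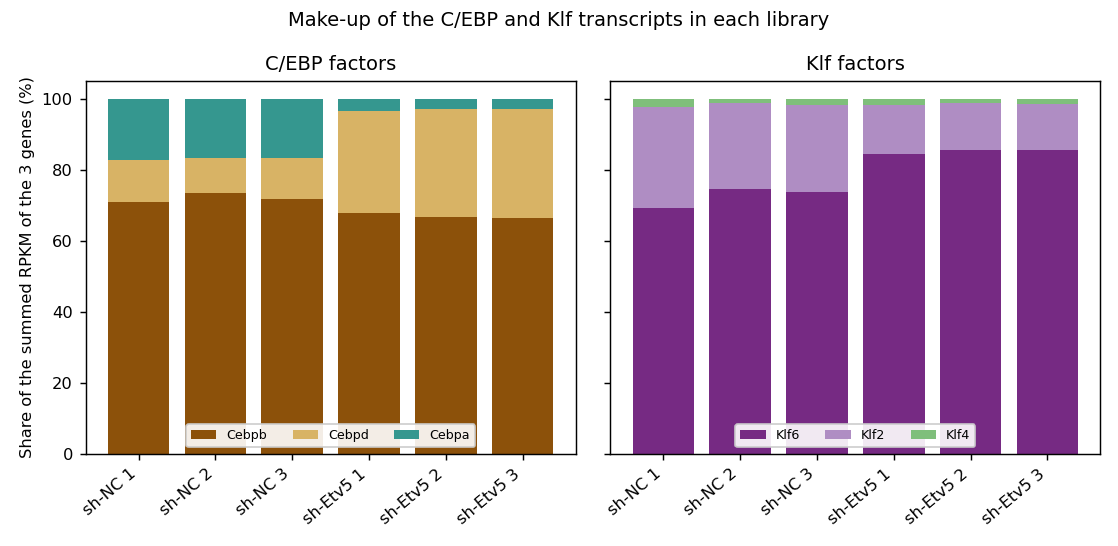
Share in percent of each gene in the summed RPKM of the 3 C/EBP genes (left) and the 3 Klf genes (right), with 1 stacked bar per library. The *Cebpa* share is 16.6% to 17.4% in sh-NC and 2.99% to 3.42% in sh-*Etv5* libraries, and the *Klf6* share is 69.2% to 74.5% and 84.5% to 85.6%.

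Of the Krüppel-like factors, *Klf6* (chromosome 13 from 5861482 to 5870394, plus strand, no overlapping exons) rose. It was at 15.0, 15.9 and 15.3 RPKM in sh-NC and at 35.6, 38.2 and 38.8 RPKM in sh-*Etv5* libraries, with no overlap. The mean rose 2.43-fold, from 15.4 ± 0.464 to 37.5 ± 1.71 RPKM (SD, n = 3, log2 fold change 1.23, 95% confidence interval 1.13 to 1.33, limma adjusted p = 1.25e-09). By contrast, *Klf2* (chromosome 8 from 72319033 to 72321656, plus strand) was at 6.14, 5.19 and 5.11 RPKM in sh-NC and at 5.76, 5.94 and 5.89 RPKM in sh-*Etv5* libraries. All 3 sh-*Etv5* values of *Klf2* lay within the range of the sh-NC values. The change of *Klf2* on the log2 scale was 0.09, with a 95% confidence interval from -0.07 to 0.24 (limma adjusted p = 0.277), and without sh-NC replicate 1, the highest library, it was 0.16 (limma adjusted p = 0.0531). The share of *Klf2* in the summed RPKM of the 3 Klf genes was 25.7 ± 2.25% in sh-NC and 13.3 ± 0.351% in sh-*Etv5* libraries (SD, n = 3, exact permutation p = 0.1).

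*Klf4* (chromosome 4 from 55527143 to 55532466, minus strand) was low throughout, at 0.532, 0.270 and 0.363 RPKM in sh-NC and at 0.750, 0.491 and 0.660 RPKM in sh-*Etv5* libraries, and the groups overlapped. Without the filter on low values *Klf4* differed by 0.24 on the log2 scale, with a 95% confidence interval from -0.02 to 0.49 (limma adjusted p = 0.166). *Maf* (chromosome 8 from 115682942 to 115707794, minus strand) was listed at 0 in every sh-NC library, whereas it measured 0.0580, 0.0149 and 0.0883 RPKM in sh-*Etv5* libraries. With the step of low values as 1 read and the GENCODE exonic length of *Maf*, these values correspond to about 9.06, 2.71 and 13.5 reads, against 0 in each sh-NC library. Without the filter, *Maf* differed by 0.07 in log2(RPKM + 1) (95% confidence interval 0.00286 to 0.147, limma adjusted p = 0.122). Neither *Klf4* nor *Maf* was thus called, although the groups did not overlap for *Maf*, and Raw264.7 cells of both groups held little of either transcript.

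*Runx1* and *Bhlhe40* fell. *Runx1* (chromosome 16 from 92601466 to 92826149, minus strand) measured 10.7, 10.7 and 10.3 RPKM in sh-NC and 7.20, 7.40 and 6.84 RPKM in sh-*Etv5* libraries. The mean of *Runx1* fell by 32.2%, from 10.5 ± 0.247 to 7.15 ± 0.286 RPKM (SD, n = 3, log2 fold change -0.50, 95% confidence interval -0.62 to -0.39, limma adjusted p = 5.54e-06). The table holds 1 value per gene, so transcripts from the distal and the proximal *Runx1* promoter were not told apart. *Bhlhe40* (chromosome 6 from 108660629 to 108666925, plus strand) was at 10.7, 11.7 and 11.5 RPKM in sh-NC and at 6.99, 7.04 and 6.37 RPKM in sh-*Etv5* libraries. It thus fell by 39.6%, from a mean of 11.3 ± 0.534 to 6.80 ± 0.374 RPKM (SD, n = 3, log2 fold change -0.65, 95% confidence interval -0.78 to -0.52, limma adjusted p = 1.55e-06). For both genes the groups were apart by more than their spread.

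**Figure D3:**
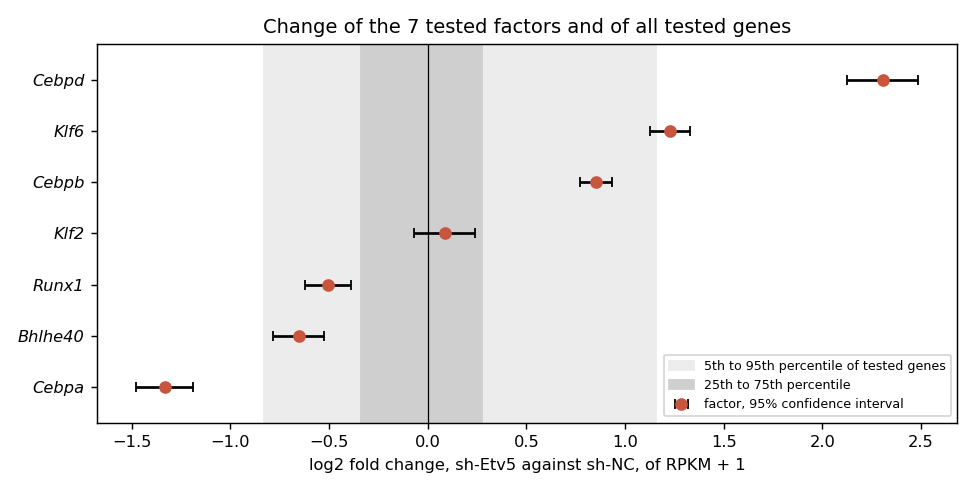
Log2 fold change of RPKM + 1 (sh-*Etv5* against sh-NC) of the 7 tested factors with 95% confidence intervals. The light band covers the 5th to 95th percentile of all 10738 tested genes and the dark band the 25th to 75th. *Cebpd* (2.31), *Klf6* (1.23) and *Cebpa* (-1.33) lie outside the light band, which ends at -0.83 and 1.16.

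The order of the levels changed accordingly. In sh-NC libraries it ran from *Cebpb* over *Cebpa*, *Klf6*, *Cebpd*, *Bhlhe40*, *Runx1* and *Klf2* to *Klf4* and *Maf*, and the ranges of *Cebpd*, *Bhlhe40* and *Runx1* overlapped their neighbors. In sh-*Etv5* libraries, *Cebpd* and *Klf6* followed *Cebpb*, each clear of the next. *Runx1*, *Bhlhe40*, *Cebpa* and *Klf2* lay close together there, between 5.76 and 7.40 RPKM, and each overlapped the next. *Cebpa* thus went from order 2 to order 6 and *Cebpd* from order 4 to order 2. Among the 7 tested factors, the coefficient of variation ran from 2.34% (*Runx1*) to 14.2% (*Cebpd*) in sh-NC libraries and from 1.57% (*Klf2*) to 8.31% (*Cebpa*) in sh-*Etv5* libraries, and for *Klf4* it was 34.2% and 20.7%.

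The stretches before the start sites of *Cebpb* and *Klf6*, which rose, *Cebpa*, which fell, and *Klf2*, which was not called, are shown because these genes are the C/EBP and Klf factors with a tested change whose promoters were in the RefSeq table (GRCm38.p6). *Cebpd*, *Maf* and *Bhlhe40* were not matched. Each line ends at the base before the start site, or earlier where GENCODE places an exon. Capitals mark matches, on either strand, to any of the motifs searched.
*Cebpb* promoter, chr2:167688665-167688914, plus strand: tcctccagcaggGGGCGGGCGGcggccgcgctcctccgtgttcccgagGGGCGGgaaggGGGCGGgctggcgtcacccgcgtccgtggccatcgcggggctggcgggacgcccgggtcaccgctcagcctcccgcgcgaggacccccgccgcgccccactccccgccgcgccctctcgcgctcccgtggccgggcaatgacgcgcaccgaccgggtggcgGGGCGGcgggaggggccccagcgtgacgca
*Klf6* promoter, chr13:5861239-5861481, plus strand: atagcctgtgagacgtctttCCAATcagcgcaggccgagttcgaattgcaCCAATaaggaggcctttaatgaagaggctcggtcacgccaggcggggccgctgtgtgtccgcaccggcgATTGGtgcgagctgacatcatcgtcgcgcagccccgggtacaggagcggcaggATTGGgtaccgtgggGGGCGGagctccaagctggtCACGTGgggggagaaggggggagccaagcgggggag
*Cebpa* promoter, chr7:35119043-35119292, plus strand: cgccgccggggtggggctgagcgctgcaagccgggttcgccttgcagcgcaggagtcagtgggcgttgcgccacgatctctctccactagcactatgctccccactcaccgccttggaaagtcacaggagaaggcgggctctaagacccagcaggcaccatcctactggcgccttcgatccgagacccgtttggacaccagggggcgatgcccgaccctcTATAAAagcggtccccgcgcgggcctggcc
*Klf2* promoter, chr8:72318812-72319032, plus strand: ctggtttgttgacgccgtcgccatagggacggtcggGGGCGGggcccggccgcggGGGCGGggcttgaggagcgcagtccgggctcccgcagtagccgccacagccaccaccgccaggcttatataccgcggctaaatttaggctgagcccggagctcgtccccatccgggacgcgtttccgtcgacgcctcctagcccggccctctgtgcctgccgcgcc

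The search covered 300 bases (250 before the start) of the 7 promoters of 6 factors and of all 32851 promoters of the table, with positions counted from the RefSeq start site. The GC box GGGCGG, the letters bound by Sp and Klf proteins, was found 5 times before *Cebpb*, where the first pair of matches overlaps, and in 4 of the 7 promoters, against 35.7% of all promoters. *Cebpa* had none, and held the TATA letters TATAAA from -30 to -25, and *Cebpb* held them after its start, from 21 to 26. They were in 2 of the 7 promoters, against 13.6% of all promoters. *Klf6* held 4 copies of CCAAT (37.4% of all promoters had at least 1) and an E-box CACGTG, the letters bound by Bhlhe40, from -43 to -38. The E-box was found in 3 of the 7 promoters, those of *Klf6*, *Klf4* and the distal start of *Runx1*, against 7.15% of all promoters. Before the distal start of *Runx1* it lay from -71 to -66, where GENCODE places an exon. The ETS letters CCGGAA were found only before the proximal start of *Runx1*, from -106 to -101 (14.9% of all promoters). The RUNX letters TGTGGT were found only after the distal start of *Runx1*, from 28 to 33 and from 36 to 41 (16.8% of all promoters). None of the 7 windows held the AP-1 letters TGANTCA, the CRE core TGACGT, the C/EBP letters TTGCNNAA or the κB motif, which were in 7.81%, 7.51%, 10.8% and 1.63% of all promoters. These are matches of letters in a short window and not binding sites.

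Relatives and partners of the C/EBPs were mostly higher. Of 8 such bZIP genes, 7 were tested, 5 were higher, none was lower and 2 were not called, with a median log2 fold change of 0.91. Over all tested genes, 33.3% were higher and 41.0% lower. *Ddit3*, which encodes the C/EBP partner CHOP that is induced by stress of the endoplasmic reticulum, went from 9.0, 8.4 and 8.0 RPKM to 158, 147 and 158 RPKM (log2 fold change 4.04, limma adjusted p = 1.29e-13). *Ddit3* was thus at 0.115 ± 0.00791 of the level of *Cebpb* in sh-NC and at 1.15 ± 0.0169 times that level in sh-*Etv5* libraries (SD, n = 3, exact permutation p = 0.1). *Nfil3*, a repressor that binds related sites, rose from 5.35 ± 0.479 to 24.3 ± 0.897 RPKM (SD, n = 3, log2 fold change 1.997, limma adjusted p = 2.98e-10). *Cebpe*, the C/EBP of late granulocyte maturation, rose from 3.27 ± 0.463 to 8.27 ± 0.441 RPKM (SD, n = 3, log2 fold change 1.12, limma adjusted p = 2.82e-07).

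The Tribbles proteins Trib1 and Trib2 bring the ubiquitin ligase COP1 to C/EBPα, which is then degraded, whereas Trib3 is a stress-induced relative that is not known for this. All 3 tested genes of this group were higher, against 33.3% of all tested genes, and *Trib2* was listed at 0 in all libraries. *Trib3* rose from 2.998 ± 0.243 to 40.1 ± 1.26 RPKM (SD, n = 3, log2 fold change 3.36, limma adjusted p = 1.92e-12) and *Trib1* from 1.77 ± 0.163 to 3.76 ± 0.248 RPKM (SD, n = 3, log2 fold change 0.78, limma adjusted p = 3.13e-06). *Cop1* was at 3.18, 3.21 and 2.47 RPKM in sh-NC and at 4.47, 4.53 and 3.64 RPKM in sh-*Etv5* libraries (log2 fold change 0.40, limma adjusted p = 0.00301), but it was not called without the filter (limma adjusted p = 0.0643, the highest of its alternatives).

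Among 11 Maf proteins and their partners, 7 were tested, 5 were higher, 1 was lower and 1 was not called (median log2 fold change 0.56). The shares over all tested genes were 33.3% higher and 41.0% lower. The small Maf genes *Maff* and *Mafk*, which lack an activation domain, rose. *Maff* went from 1.41 ± 0.149 to 7.31 ± 0.403 RPKM (SD, n = 3, log2 fold change 1.79, limma adjusted p = 2.49e-09), and *Mafk* from 13.3 ± 0.906 to 23.0 ± 0.886 RPKM (SD, n = 3, log2 fold change 0.74, limma adjusted p = 3.02e-07). *Nfe2l1*, a partner that controls proteasome genes, rose from 39.6 ± 0.436 to 82.1 ± 2.89 RPKM (SD, n = 3, log2 fold change 1.03).

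Of 14 further Klf genes, 7 were tested, 5 were higher and 2 were lower (median log2 fold change 0.44). Of these, *Klf8* passed the filter only through the sh-*Etv5* libraries, and 4 were higher and 2 lower without it, against 33.3% and 41.0% of all tested genes. The counts were also 4 and 2 with libraries rescaled to the same sum or quantile normalized. *Klf7* rose from 3.04 ± 0.195 to 7.27 ± 0.774 RPKM (SD, n = 3, log2 fold change 1.03, limma adjusted p = 3.62e-07) and *Klf3*, a repressor, from 1.60 ± 0.052 to 4.09 ± 0.439 RPKM (SD, n = 3, log2 fold change 0.97, limma adjusted p = 6.78e-07). *Klf10*, which is induced by TGF-β, fell from 7.90 ± 0.388 to 3.77 ± 0.265 RPKM (SD, n = 3, log2 fold change -0.90, limma adjusted p = 2.59e-07).

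*Cbfb*, whose product stabilizes Runx1 on DNA, fell along with *Runx1*. It was at 61.0, 64.6 and 64.6 RPKM in sh-NC and at 30.9, 33.1 and 34.6 RPKM in sh-*Etv5* libraries, a fall by 48.2% (log2 fold change -0.93, limma adjusted p = 1.3e-08). The corepressor *Tle3* rose from 11.4 ± 0.684 to 14.3 ± 0.84 RPKM (SD, n = 3, log2 fold change 0.30, limma adjusted p = 0.000761), whereas *Cbfa2t2* was not called (log2 fold change 0.02, limma adjusted p = 0.851), and its sign depended on the scaling. *Runx2* and *Runx3* were among the 4 of 7 genes below the filter, none of which exceeded 0.717 RPKM.

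The E-box factors were on the lower side with *Bhlhe40*. Of 8 genes, 6 were tested, 5 were lower, none was higher and 1 was not called (median log2 fold change -0.62), and with libraries rescaled to the same sum or quantile normalized 6 and 4 were lower. Over all tested genes, 41.0% were lower and 33.3% higher. *Mitf*, which with Tfe factors controls lysosomal and osteoclast genes, fell from 7.52, 7.55 and 7.48 RPKM to 1.99, 2.17 and 2.19 RPKM (log2 fold change -1.45, limma adjusted p = 3.25e-09). *Tfeb* fell from 4.58 ± 0.371 to 1.68 ± 0.113 RPKM (SD, n = 3, log2 fold change -1.06, limma adjusted p = 2.34e-07). *Bhlhe41*, the closest relative of *Bhlhe40*, fell by 38.9%, near to the 39.6% of *Bhlhe40*, from 10.0 ± 0.0319 to 6.13 ± 0.166 RPKM (SD, n = 3, log2 fold change -0.63, limma adjusted p = 6.69e-07).

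Other lineage factors went either way. Of 13, 7 were tested, with 3 higher, 2 lower and 2 without a call, against 33.3% higher and 41.0% lower of all tested genes. *Irf8*, the monocyte lineage factor, rose from 25.9 ± 0.904 to 47.4 ± 0.927 RPKM (SD, n = 3, log2 fold change 0.85, limma adjusted p = 7.23e-09), and *Id3*, an inhibitor of E proteins, fell from 53.4 ± 1.12 to 29.4 ± 2.16 RPKM (SD, n = 3, log2 fold change -0.84, limma adjusted p = 5.51e-08). *Spi1*, which encodes PU.1 and was named after its values were seen, was at 174, 157 and 157 RPKM in sh-NC and at 188, 181 and 174 RPKM in sh-*Etv5* libraries (log2 fold change 0.15, limma adjusted p = 0.0101). This call did not hold with libraries rescaled to the same sum (log2 fold change 0.09, limma adjusted p = 0.0778) or without the filter (limma adjusted p = 0.11).

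**Figure D4:**
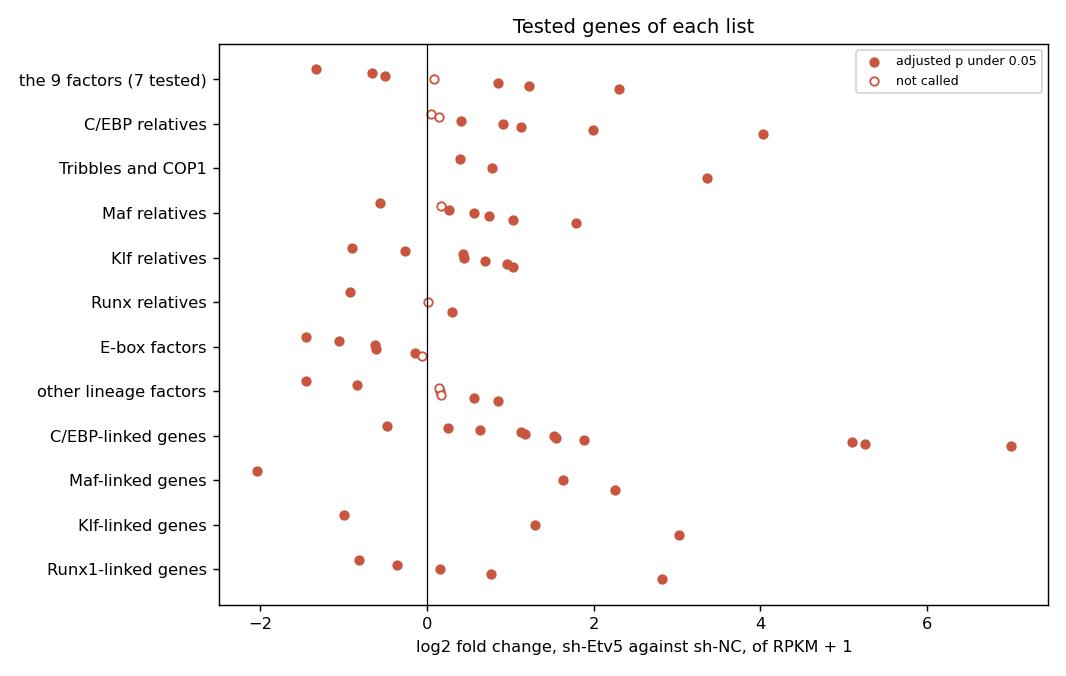
Log2 fold change of RPKM + 1 of the tested genes of each list (rows), filled where the limma adjusted p was under 0.05 and open where not. The C/EBP relatives lie at or above 0.04 and the E-box factors at or below -0.06, whereas the 7 tested factors run from -1.33 to 2.31.

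Genes that are known to depend on these factors were read in the same libraries. Of 14 genes linked to C/EBPs, 11 were tested. Of these, 6 (*Csf3r*, *Lcn2*, *Saa3*, *Ptges*, *Il6* and *Il1b*) passed the filter only through the sh-*Etv5* libraries, so that their direction was set by the filter. Of the 5 at 1 RPKM or more in every library, 4 were higher and 1 was lower, against 33.3% and 41.0% of all tested genes. Without sh-*Etv5* replicate 1, 2 or 3, 6 of the 14 genes were called in place of 11. *Lcn2*, an iron-binding acute-phase protein, was at 0.0566, 0.0556 and 0 RPKM in sh-NC and at 127, 130 and 141 RPKM in sh-*Etv5* libraries, with a log2 fold change of 7.01. *Il6*, listed at 0 in sh-NC libraries, was at 37.4 ± 2.95 RPKM in sh-*Etv5* libraries (SD, n = 3). *Ptgs2*, the inducible prostaglandin synthase, rose from 8.51 ± 0.394 to 327 ± 10.8 RPKM (SD, n = 3, log2 fold change 5.11, limma adjusted p = 8.2e-15). The granulocyte genes *Mpo* and *Elane*, also linked to C/EBPs, were not above 0.0210 RPKM in any library. Of 9 neutrophil markers, 7 were below the filter, and *Csf3r* and *S100a8* passed it only through the sh-*Etv5* libraries. *S100a8* went from 0.306 ± 0.184 to 17.1 ± 2.29 RPKM (SD, n = 3), while *S100a9* was listed at 0 in all libraries.

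Of 13 genes linked to Maf factors, 10 were below the filter and none of these exceeded 0.355 RPKM. The 3 tested genes each passed it through 1 group only, *Il10* and *Slc40a1* through sh-*Etv5* and *Gas6* through sh-NC libraries, so that the directions were set by the filter and only the values are given. *Il10* was not above 0.0372 RPKM in sh-NC libraries and was at 3.49, 3.70 and 4.37 RPKM in sh-*Etv5* libraries. *Slc40a1*, the iron exporter, went from 0.650 ± 0.00672 to 4.11 ± 0.0843 RPKM (SD, n = 3), and *Gas6*, a ligand for uptake of dying cells, from 5.69 ± 0.151 to 0.627 ± 0.12 RPKM (SD, n = 3).

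Of 7 genes linked to Klf factors, 3 were tested, of which *S1pr1* passed the filter only through the sh-NC libraries. The other 2 were higher, against 33.3% of all tested genes. Without sh-NC replicate 1, 2 or 3, 2 were called. The integrin gene *Itgb7* rose from 1.87 ± 0.338 to 22.3 ± 0.572 RPKM (SD, n = 3, log2 fold change 3.02, limma adjusted p = 7.7e-11) and the cell cycle inhibitor *Cdkn1a* from 76.4 ± 2.19 to 189 ± 4.55 RPKM (SD, n = 3, log2 fold change 1.30, limma adjusted p = 1.07e-10). *S1pr1*, a receptor for sphingosine 1-phosphate, went from 1.94 ± 0.228 to 0.473 ± 0.0784 RPKM (SD, n = 3), a direction set by the filter. Of 7 genes linked to Runx1, 5 were tested. *Csf2* passed only through the sh-*Etv5* libraries, so that its direction was set by the filter. Among the other 4, 2 were higher and 2 lower, against 33.3% and 41.0% of all tested genes. The higher call of *Spi1*, 1 of these 2, did not hold with libraries rescaled to the same sum. *Csf1r*, the receptor for macrophage colony-stimulating factor, fell from 428 ± 4.56 to 244 ± 6.72 RPKM (SD, n = 3, log2 fold change -0.81, limma adjusted p = 1.9e-09). *Csf2*, which encodes GM-CSF, went from 0.196 ± 0.0328 to 7.47 ± 0.881 RPKM (SD, n = 3). *Csf2ra*, a chain of the GM-CSF receptor, rose from 16.3 ± 1.36 to 28.4 ± 0.59 RPKM (SD, n = 3, log2 fold change 0.77, limma adjusted p = 3.15e-07). Another chain, *Csf2rb*, fell from 7.27 ± 0.0893 to 5.44 ± 0.529 RPKM (SD, n = 3, log2 fold change -0.36, limma adjusted p = 0.000522).

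The genes most like *Cebpd* over the 6 libraries, by Euclidean distance of log2(RPKM + 1) after subtracting the sh-NC mean, were *Tmem171* (distance 0.115, log2 fold change 2.35), *Pim2* (0.202, 2.27) and *Zc3h12a* (0.206, 2.32). Those most like *Cebpa* were *Acaa1a* (distance 0.108, log2 fold change -1.33), *Fam20c* (0.139, -1.35) and *Syngr1* (0.151, -1.27). With 2 groups, this distance mainly finds genes with a change of like size.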

How the data were processed

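RNA-sequencing of 3 sh-NC and 3 sh-*Etv5* libraries of Raw264.7 cells was analysed, grouped by the sample labels. The authors deposited RPKM values per gene symbol, made from coverage tracks, with mm10 as the build per the labels and a TruSeq library kit. The aligner, annotation and strand setting are not given in the sources used here. After a filter of 1 RPKM in 3 or more libraries, log2 values with a pseudocount of 1 entered limma 3.58.1 (R 4.3.3, trended eBayes, two-sided, no covariate), with Benjamini-Hochberg adjustment over all 10738 genes and calls under 0.05. Fold changes on this scale understate the change of low genes. Shares and ratios were compared by exact permutation with SciPy 1.17.1. Coordinates, exon overlaps and shared 50-base sequences came from GENCODE M21, and at most 0.269% of the 50-base sequences of any of the 9 factors occurred in another gene. For *Etv5* the share was 24.5%, with *Gm4798*. Promoters were from RefSeq (GRCm38.p6).

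The 9 factors, the gene lists and the tests were chosen with earlier results of these data known. Lists are described by counts and medians only. Genes were named by rule: the 9 factors, *Etv5*, the 3 genes of each list with the largest absolute change, and the 3 genes nearest to the largest rise and fall. Other names were chosen after values were seen. The limma step was tested on simulated data with 200 of 10738 genes changed, of which 186 were recovered, with 7 false calls. Far more genes were called in the real data (74.3%), so that this checks the code and not the calls. Alternatives were other pseudocounts, filters, scalings and variance models, a replicate block, a fold threshold and leaving out each library.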

Additional observations from a re-analysis of the deposited data

How the results depend on the processing

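The 6 called factors and *Klf2* kept their direction and their side of the threshold in all 105 combinations of 7 factors and 15 settings: pseudocounts of 0.1 and 0.01, all genes unfiltered, a minimum mean of 5 RPKM, 3 scalings, no trend, the replicate block and each of 6 libraries left out. Over these, the log2 fold change ran from 2.19 to 2.40 for *Cebpd*, from 0.79 to 0.88 for *Cebpb*, from -1.46 to -1.28 for *Cebpa*, from 1.17 to 1.28 for *Klf6*, from -0.56 to -0.48 for *Runx1* and from -0.73 to -0.61 for *Bhlhe40*. The limma adjusted p of *Klf2* ran from 0.0531 to 0.669. With an absolute log2 fold change above 1 required in addition, 2 factors were higher and 1 was lower, and *Etv5* (-0.78) did not pass. The share of all tested genes that pass this threshold was not computed. Over all tested genes, the 5th and 95th percentiles of the log2 fold change were -0.83 and 1.16. For *Maf* the difference was 0.59 and 2.46 with pseudocounts of 0.1 and 0.01, and for *Klf4* 0.61 and 0.72. Replicate numbers did not pair the libraries (correlations of deviations 0.0739, -0.071 and -0.0352). With the number as a block, 3 factors were higher and 3 lower, and no call changed among the 7 factors, *Etv5* and the genes named by the rule. The paired difference was -13.8 percentage points for the *Cebpa* share and 12.7 for the *Klf6* share (0.25 is the exact p of 3 pairs and the smallest possible).

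With the threshold on the fold change, the called genes numbered 3 for C/EBP relatives, 1 for Tribbles and COP1, 2 for Maf relatives, 1 for Klf relatives, 0 for Runx relatives, 2 for E-box factors, 1 for other lineage factors and 1 for genes linked to Runx1. No share over all tested genes was computed at this threshold to set beside these counts. With a mean RPKM of at least 5, they numbered 1 for Tribbles and COP1, 3 for E-box factors, 7 for genes linked to C/EBPs and 0 for genes linked to Maf factors, since fewer genes were tested. With each library left out, 6 to 11 genes linked to C/EBPs and 1 to 2 genes linked to Maf factors were called. The lowest counts came without sh-*Etv5* replicate 1, 2 or 3, because genes with 2 remaining libraries above 1 RPKM no longer passed the filter. The other counts stayed between 5 and 6 (C/EBP relatives, other lineage factors), 6 and 7 (Maf and Klf relatives) and 4 and 5 (E-box factors, genes linked to Runx1), at 3 (Tribbles and COP1) and at 2 (Runx relatives). Of the genes linked to Klf factors, 2 in place of 3 were called without sh-NC replicate 1, 2 or 3. *Cbfa2t2*, not called in any setting, changed sign with libraries rescaled to the same sum (log2 fold change -0.026) and with quantile scaling (-0.073), and ran between -0.023 and 0.094 as libraries were left out. *Maf* stood on about 2.71 to 13.5 reads in the sh-*Etv5* libraries and 0 in the sh-NC libraries, and *Klf4* on about 17.0 to 43.4 reads per library, if a step of the low values is 1 read.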
